A study of Mus musculus with 6 samples.

Results

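The genes described here are 8 genes of the smooth-muscle contractile apparatus, *Acta2*, *Actg2*, *Tagln*, *Myl9*, *Cnn1*, *Tpm1*, *Tpm2* and *Cald1*, and 2 genes of intermediate filaments, *Vim* and *Des*. They were chosen by name, as a group built around *Acta2* and *Vim*, whose levels in these libraries were among the highest of all genes. All 10 had a row among the 17193 genes of the deposited tables. Because abundance was the reason for the choice, the levels below are a description and were not tested. The rule of choice did not use the difference between treatments, which was tested, although earlier results of these data were known when the genes were chosen. The libraries were prepared from poly(A) RNA of astrocytes taken from the brains of wild-type C57BL/6 mice aged 3 months and isolated with microbeads against ACSA-2, a surface antigen encoded by *Atp1b2*. The study asked which transcripts change in astrocytes when the dopamine D2 receptor is stimulated, and compared 3 libraries labelled Mock with 3 from mice given quinpirole, an agonist of that receptor. The dose and duration of quinpirole for these mice, and whether a library held 1 mouse or pooled mice, were not given in the sources used here, so p-values measure only the spread between libraries. The tables hold no counts, and the depth estimated from the steps between low values was 22400000 to 27500000 fragments per library.

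Smooth muscle contracts when myosin pulls on filaments of smooth-muscle actin, and calponin, caldesmon and tropomyosin sit on those filaments and regulate the pull. Many of these genes are controlled by serum response factor (SRF), which binds a sequence called the CArG box and is assisted by myocardin or by the myocardin-related factors. Intermediate filaments are a separate, more stable scaffold. Vimentin is their usual subunit in immature and reactive astrocytes and in mesenchymal cells, GFAP in mature astrocytes, and desmin in muscle.

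The 6 actins have very similar coding sequences, which bears on how their reads can be told apart. The last 60 coding bases, stop codon included, are shown for that reason from GENCODE transcripts on GRCm38, with capitals marking every base that differs from *Acta2*.
Acta2: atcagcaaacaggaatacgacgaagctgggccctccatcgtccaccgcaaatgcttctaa
Actg2: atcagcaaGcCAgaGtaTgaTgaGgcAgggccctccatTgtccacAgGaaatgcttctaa
Acta1: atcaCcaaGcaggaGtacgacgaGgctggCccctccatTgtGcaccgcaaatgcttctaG
Actc1: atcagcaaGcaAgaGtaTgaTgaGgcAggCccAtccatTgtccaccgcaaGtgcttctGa
Actb: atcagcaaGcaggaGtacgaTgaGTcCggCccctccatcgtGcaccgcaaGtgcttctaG
Actg1: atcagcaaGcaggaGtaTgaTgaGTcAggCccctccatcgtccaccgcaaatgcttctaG
In this stretch *Actg2*, the enteric smooth-muscle actin, differed from *Acta2* at 11 bases, and the cytoplasmic actins *Actb* and *Actg1* differed at 10 and 9. Over the aligned coding sequence, identity to *Acta2* ranged from 81.9% for *Actg1* to 85.4% for *Acta1*. Only 0.352% of the 50-base words of the longest *Acta2* coding transcript also occurred in another gene, and none did for *Actg2*. *Actg1* shared 56.7% of its words with other genes, most of them pseudogenes, and its level is less certain.

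The 300 bases around the transcription start (250 before and 50 after it) are shown for the 2 genes that led the choice, *Acta2* and *Vim*, for *Myl9*, which carries a CArG box, and for *Des*, which was at the floor of detection. They were taken from RefSeq on GRCm38.p6, where 8 of the 10 genes had an entry, and *Actg2* and *Tagln* had none. Capitals mark a CArG box, a CArG box with 1 base of its A/T core replaced by C or G, or TATAAA, searched on both strands.
Acta2, chr19:34255324-34255623, minus strand: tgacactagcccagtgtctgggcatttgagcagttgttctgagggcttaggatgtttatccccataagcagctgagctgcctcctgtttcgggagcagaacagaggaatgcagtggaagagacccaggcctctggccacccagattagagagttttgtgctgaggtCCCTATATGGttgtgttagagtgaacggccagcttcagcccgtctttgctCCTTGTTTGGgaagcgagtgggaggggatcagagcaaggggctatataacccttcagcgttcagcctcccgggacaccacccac
Myl9, chr2:156775214-156775513, plus strand: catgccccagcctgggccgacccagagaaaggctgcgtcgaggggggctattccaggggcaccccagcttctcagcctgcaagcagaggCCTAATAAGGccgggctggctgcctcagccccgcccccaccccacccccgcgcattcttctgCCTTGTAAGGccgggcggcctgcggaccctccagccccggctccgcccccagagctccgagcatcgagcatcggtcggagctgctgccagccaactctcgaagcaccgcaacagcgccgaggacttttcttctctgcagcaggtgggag
Vim, chr2:13574061-13574360, plus strand: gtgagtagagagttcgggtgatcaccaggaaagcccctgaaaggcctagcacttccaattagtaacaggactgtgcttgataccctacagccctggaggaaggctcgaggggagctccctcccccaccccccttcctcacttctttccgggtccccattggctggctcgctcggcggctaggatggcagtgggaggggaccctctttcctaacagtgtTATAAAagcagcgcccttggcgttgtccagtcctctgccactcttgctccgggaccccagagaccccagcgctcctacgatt
Des, chr1:75360042-75360341, plus strand: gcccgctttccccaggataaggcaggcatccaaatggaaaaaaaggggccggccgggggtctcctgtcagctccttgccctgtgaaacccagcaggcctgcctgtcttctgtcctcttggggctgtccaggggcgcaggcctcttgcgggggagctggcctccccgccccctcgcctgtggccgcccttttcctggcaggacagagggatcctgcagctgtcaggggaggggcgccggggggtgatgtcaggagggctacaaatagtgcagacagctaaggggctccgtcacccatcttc
The *Acta2* window held 2 near-CArG sequences, CCCTATATGG starting 84 bases and CCTTGTTTGG starting 34 bases before the start site. The *Myl9* window held the CArG box CCTAATAAGG starting 161 bases before the start and the near-CArG sequence CCTTGTAAGG starting 99 bases before it. The *Vim* window held TATAAA 32 bases before the start, and the *Des* window held none of these letters. The windows of *Cnn1*, *Tpm1*, *Tpm2* and *Cald1*, which are not shown, held no CArG box and no near-CArG sequence. A *Cald1* window held TATAAA. Among 32851 promoter windows of the same length, 1.63% held a CArG box, 8.50% a near-CArG sequence and 13.6% TATAAA. A match is a description of the letters and not a binding site, and binding was not measured.

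The 10 genes spanned the whole range of expression. FPKM scales the fragments of a gene to the length of its transcript and the depth of the library, so that levels can be compared between genes. *Vim* ranked 7 and *Acta2* ranked 8 of 17193 genes by mean FPKM, *Tagln* ranked 11, and *Myl9* ranked 54. *Tpm1* ranked 112, *Cald1* 180, *Cnn1* 378 and *Tpm2* 430, whereas *Actg2* ranked 10335 and *Des* 16000. Together the 10 genes held between 2.23% and 2.34% of all FPKM in a library. Each neighbouring pair stood in this order in 6 of 6 libraries, but the ranges of *Vim* and *Acta2*, of *Acta2* and *Tagln*, and of *Cnn1* and *Tpm2* over the libraries overlapped. Within a library, *Acta2* was between 1.11 and 1.15 times the level of *Tagln*, *Vim* was between 1.01 and 1.09 times that of *Acta2*, and these differences were not tested.

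**Figure D1:**
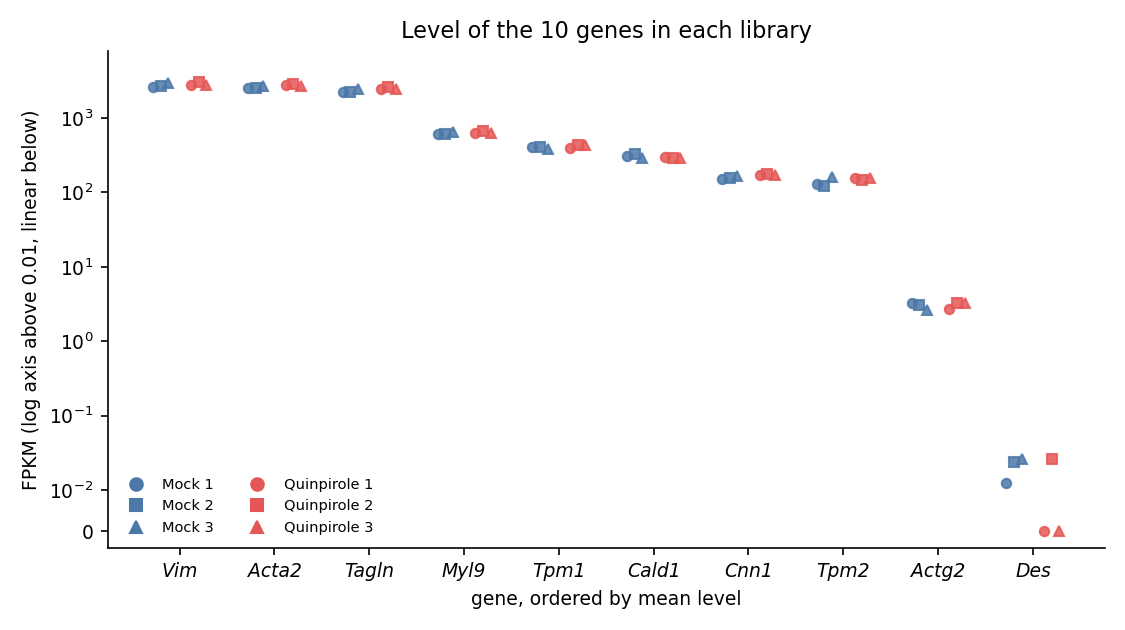
FPKM of the 10 genes in each library, with the genes ordered by mean level on the x axis and a y axis that is logarithmic above 0.01 FPKM and linear below. Each point is 1 library, with Mock on the left and Quinpirole on the right of each gene. *Vim*, *Acta2* and *Tagln* lie between 2228 and 3006 FPKM in every library, and *Des* lies at or below 0.0261 FPKM.

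*Acta2*, the alpha actin of vascular smooth muscle, lies at chr19:34241090-34255590 (minus strand, GRCm38). It was measured at 2518, 2563 and 2689.7 FPKM in the Mock libraries and at 2778, 2881 and 2709.6 FPKM in the Quinpirole libraries. All 3 Quinpirole libraries lay above all 3 Mock libraries, but the highest Mock and the lowest Quinpirole library were close together. The mean was 2590.3 ± 88.9 FPKM (SD, n = 3) in Mock and 2789 ± 86.1 FPKM (SD, n = 3) in Quinpirole. The log2 fold change was 0.11 (SE 0.05, 95% interval -0.0041 to 0.22), and limma gave an adjusted p of 0.171. On the linear scale the interval allowed a fold between 0.997 and 1.16. *Actg2* lies at chr6:83512905-83536265 (minus strand). It was at 3.29, 3.08 and 2.65 FPKM in Mock and at 2.71, 3.25 and 3.23 FPKM in Quinpirole. The groups overlapped fully, and the log2 fold change of 0.02 (95% interval -0.19 to 0.23) had an adjusted p of 0.898 by limma.

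*Acta2* held about as much of the actin FPKM as all other actins together. Its share was between 49.6% and 50.9% over the 6 libraries, against 24.0% to 25.3% for *Actb* and 24.4% to 25.8% for *Actg1*. The striated-muscle actins *Acta1* and *Actc1* had mean levels of 2.04 and 0.0608 FPKM, and *Actg2* never exceeded 0.0654% of the actin total. The level of *Acta2* was between 765 and 1026 times that of *Actg2*, and between 1.96 and 2.11 times that of *Actb*. The ratio to *Actb* varied less than that to *Actg2*, and for both the Mock and Quinpirole libraries overlapped.

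*Myl9*, the regulatory light chain of smooth-muscle myosin, lies at chr2:156775420-156781658 (plus strand). It was at 610.5, 609 and 650.3 FPKM in Mock and at 636, 673 and 619 FPKM in Quinpirole. The groups overlapped, since the Mock 3 library was above 2 of the Quinpirole libraries. The log2 fold change was 0.04 (SE 0.05, 95% interval -0.0656 to 0.15), with an adjusted p of 0.558 by limma. Among *Myl9*, *Myl12a*, *Myl12b* and the essential light chain *Myl6*, *Myl9* held between 28.4% and 33.5% of the FPKM. Its upper value came from the Quinpirole 3 library, in which *Myl12a* was at 231 FPKM against 324 to 503 FPKM in the other libraries. The smooth-muscle heavy chain *Myh11*, by contrast, was at 0.525 to 0.810 FPKM and held at most 0.211% of the FPKM of *Myh9*, *Myh10* and *Myh11*, the first 2 of which encode non-muscle heavy chains. *Acta2* exceeded *Myh11* between 3107 and 5483 times.

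The calponin family proteins bind actin filaments. *Tagln* (transgelin, also called SM22 alpha), at chr9:45929619-45936058 (minus strand), was at 2249, 2228 and 2412 FPKM in Mock and at 2420.2, 2605 and 2415 FPKM in Quinpirole. The groups did not overlap, but only by the small distance between the Mock 3 and the Quinpirole 3 library. The mean was 2296 ± 101 FPKM in Mock and 2480.0 ± 108 FPKM in Quinpirole (SD, n = 3 each), with a log2 fold change of 0.11 (SE 0.05, 95% interval -0.0130 to 0.23) and an adjusted p of 0.199 by limma. *Tagln* made up between 93.4% and 94.0% of the FPKM of the transgelins, with *Tagln2* between 5.78% and 6.35%. Its level carries a limit, because 62.4% of its exonic bases are overlapped on the opposite strand by *Gm48529*, an antisense transcript, and 5.43% by *Pcsk7*, which was at 11.2 FPKM. Whether the counting used strand was not given in the sources used here, and sense and antisense fragments cannot be told apart at these bases. *Des* has such an overlap with *Gm15179* over 5.86% of its exonic bases, and no other of the 10 genes shares exonic bases with another gene in the GENCODE annotation.

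*Cnn1*, calponin of smooth muscle, lies at chr9:22099216-22109630 (plus strand). It was at 153, 154 and 168.1 FPKM in Mock and at 168.5, 174 and 169.9 FPKM in Quinpirole. The groups touched without overlapping, again through the Mock 3 library. The log2 fold change was 0.11 (SE 0.05, 95% interval 0.0057 to 0.22), and the adjusted p was 0.143 by limma. *Cnn1* was the least abundant calponin, with between 12.4% and 13.0% of their FPKM. *Cnn3* held 58.3% to 59.8% and *Cnn2* 27.8% to 28.9%, and both are found in many non-muscle cells.

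Tropomyosins lie along the actin filament and caldesmon cross-links it to myosin. *Tpm1* (chr9:67022590-67049406, minus strand) was at 407, 406 and 387 FPKM in Mock and at 392, 429 and 437 FPKM in Quinpirole, and the Quinpirole 1 library fell within the Mock range. *Tpm2* (chr4:43514711-43523765, minus strand) was at 128, 123 and 161 FPKM in Mock and at 154, 146 and 156 FPKM in Quinpirole. The Mock 3 library was the highest of all 6 for *Tpm2*, so that the Mock group had a coefficient of variation of 15.0% against 3.34% in Quinpirole. The log2 fold change was 0.07 (95% interval -0.0491 to 0.18) for *Tpm1* with an adjusted p of 0.393, and 0.15 (95% interval -0.0716 to 0.37) for *Tpm2* with an adjusted p of 0.317, both by limma. Of the tropomyosin FPKM, *Tpm1* held 41.2% to 45.2%, *Tpm4* 26.5% to 28.1%, *Tpm2* 13.7% to 17.3% and *Tpm3* 13.3% to 14.8%. The share of *Tpm2* was highest in Mock 3.

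*Cald1* (chr6:34598500-34775473, plus strand) was the one gene of the 9 tested with a lower mean in Quinpirole. It was at 307.5, 333 and 289.9 FPKM in Mock and at 296, 287 and 290.4 FPKM in Quinpirole. The Mock 3 library lay among the Quinpirole libraries, and the groups overlapped. The log2 fold change was -0.09 (SE 0.05, 95% interval -0.21 to 0.0341), with an adjusted p of 0.288 by limma.

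**Figure D2:**
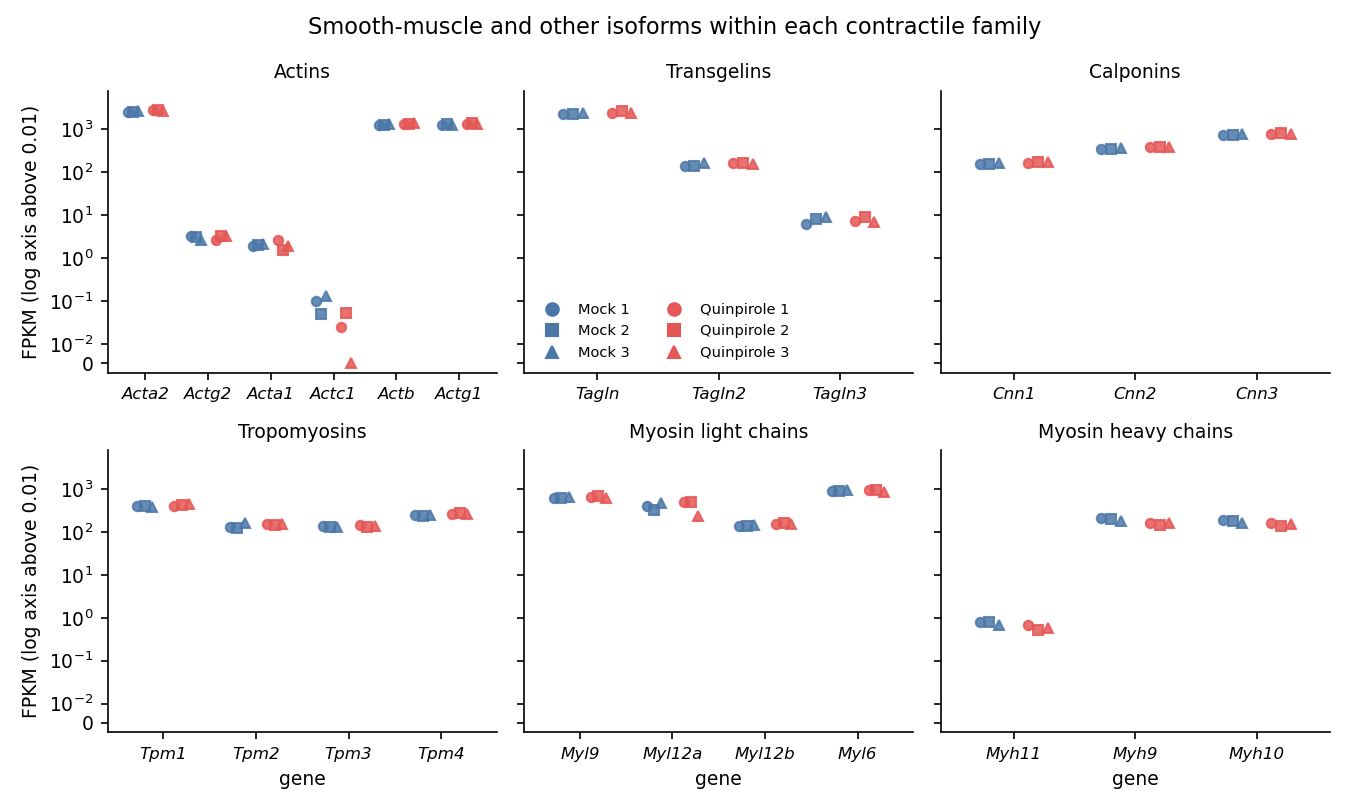
FPKM of the genes of 6 contractile families, 1 panel per family, on a y axis that is logarithmic above 0.01 FPKM. Each point is 1 library, with Mock on the left and Quinpirole on the right of each gene. *Acta2* and *Tagln* lie above the other genes of their families, whereas *Cnn1* lies below *Cnn2* and *Cnn3*, and *Myh11* stays under 1 FPKM in every library.

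Of the intermediate filament genes, *Vim* (chr2:13573927-13582826, plus strand) was at 2597, 2646 and 2920.45 FPKM in Mock and at 2811, 3006 and 2770.4 FPKM in Quinpirole. The Mock 3 library was higher than 2 of the 3 Quinpirole libraries. The mean was 2721 ± 174 FPKM in Mock and 2863 ± 126 FPKM in Quinpirole (SD, n = 3 each), with a log2 fold change of 0.07 (SE 0.06, 95% interval -0.0677 to 0.22) and an adjusted p of 0.440 by limma. *Vim* held between 75.2% and 79.8% of the FPKM of the cytoplasmic intermediate filament genes, *Gfap* between 12.8% and 15.2%, and *Nes*, which encodes nestin, between 7.11% and 9.40%. The ratio of *Vim* to *Gfap* was 5.31, 4.93 and 5.22 in Mock and 5.74, 6.23 and 5.74 in Quinpirole, so the ratios of the groups did not overlap, although neither gene passed the test by itself. This ratio was computed after the values had been seen and was not tested. The ratio of *Vim* to *Nes* did not overlap either (8.08 to 9.63 in Mock, 9.80 to 11.2 in Quinpirole), whereas that of *Vim* to *Acta2* did. Of single genes tested, 20.0% did not overlap with Quinpirole higher and 16.9% with Quinpirole lower. How often ratios of genes separate the groups was not counted.

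*Des* (chr1:75360329-75368579, plus strand) was at 0.0125, 0.0241 and 0.0260 FPKM in Mock, at 0.0261 FPKM in Quinpirole 2, and was listed at 0 in Quinpirole 1 and 3. At the depth estimated for these libraries, 3 fragments would give between 0.0291 and 0.0357 FPKM, so *Des* was below that floor in all 6 libraries and no fold change is given. It was the only one of the 10 genes below the minimum mean of 1 FPKM, and was not tested. *Vim* and *Des* therefore stood at opposite ends of the scale, although both encode intermediate filament proteins of the same class.

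None of the 9 genes tested passed the threshold of 0.05 on the adjusted p of limma, and *Cnn1* alone had an unadjusted p below it. Over all 12255 genes tested 10.9% passed, 5.74% as higher and 5.18% as lower in Quinpirole. The fold change was above 0 for 8 of the 9 genes and for 6593 of all 12255 genes tested. With quantile normalization it was above 0 for 5 of the 9 and for 6436 of all. As tested, the median log2 fold change of the 9 was 0.07 against 0.02 over all genes. The FPKM of all genes summed to 401769 to 413730 in Mock and 425244 to 437164 in Quinpirole. The share of the 10 genes in this sum was 2.23% to 2.34% in Mock and 2.25% to 2.33% in Quinpirole. The groups did not overlap for 3 of the 9, *Acta2*, *Tagln* and *Cnn1*, with Quinpirole higher in each, and for 0 with Quinpirole lower. Over all genes tested, 20.0% did not overlap with Quinpirole higher and 16.9% with Quinpirole lower. The intervals bound the differences: the widest, for *Tpm2*, ran from a fold of 0.952 to 1.30, and that for *Cald1* from 0.864 to 1.02. In RNA of a bulk preparation, fewer cells of a type and less RNA per cell cannot be told apart.

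**Figure D3:**
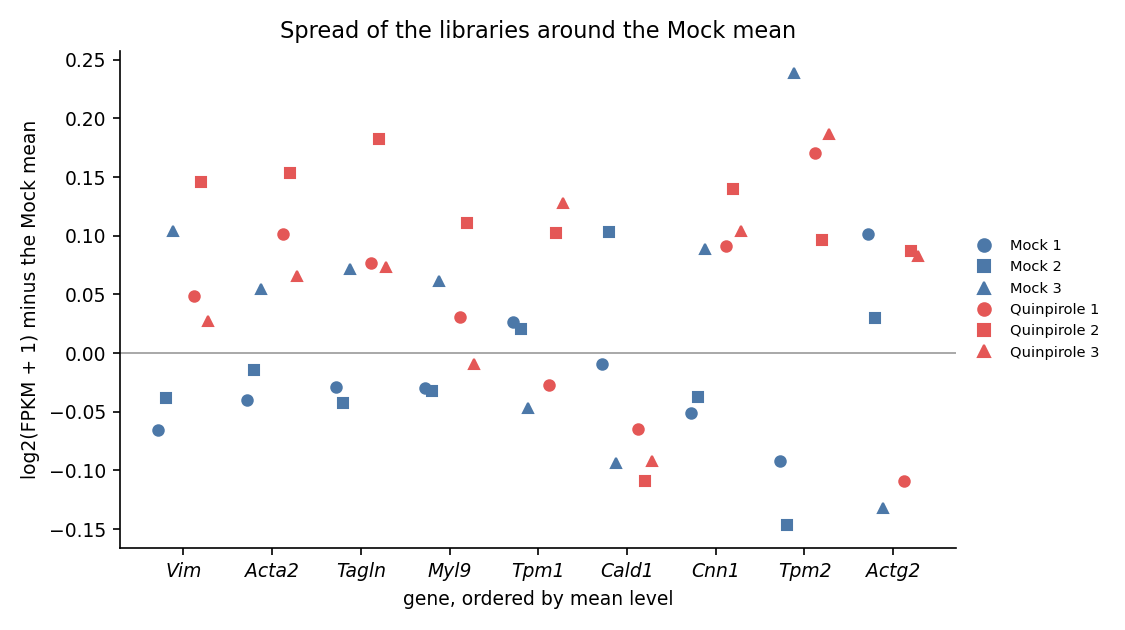
Level of the 9 tested genes in each library, as log2(FPKM + 1) minus the mean of the 3 Mock libraries. Each point is 1 library, Mock in blue and Quinpirole in red, with the marker shape for the replicate number. The Mock 3 library (blue triangle) is the highest Mock library for 6 of the 9 genes, and Quinpirole 2 (red square) is the highest of all libraries for 5. The FPKM of all genes also summed highest within Mock in Mock 3, and highest of all in Quinpirole 2.

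The libraries did not move alike within the groups. Mock 3 was the highest Mock library for 6 of the 9 genes, and Quinpirole 2 the highest of all libraries for 5. The FPKM of all genes also summed highest in these libraries. The sum was 413730 in Mock 3, against 401769 in Mock 1 and 402354 in Mock 2, and 437164 in Quinpirole 2. The share of all genes with the same extremes was not counted. Without Mock 3, 2 of the 9 genes passed the threshold, *Tpm2* with a log2 fold change of 0.27 (adjusted p = 0.0296) and *Cnn1* with 0.16 (adjusted p = 0.0475), both by limma. Over all genes 9.91% passed in that setting. Leaving out any other library gave 0 of 9, in settings where at most 210.0 of all 12255 genes passed. The counts past the threshold therefore cannot show whether Mock 3 stands apart. By limma, 6 of the 9 had an unadjusted p under 0.05 without Mock 3, against 0 or 1 without any other library. Over all genes this number was 3920 without Mock 3 and 2891 to 3580 without the others. No reason to leave out Mock 3 was found in the labels.

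The direction of several small differences depended on the scaling. Across genes, the log2 fold change fell with exonic length (Spearman rho -0.475 over 12223 genes, which are not independent of each other). The median was 0.12 for genes of at most 2514 nt, to which *Acta2*, *Tagln*, *Myl9* and *Actg2* belong, and -0.11 for the longest genes, to which *Cald1* belongs at 12041 nt. After a correction for exonic length, *Acta2* and *Tagln* were both at 0.02, *Cnn1* at 0.04 and *Cald1* at 0.04. *Myl9* moved to -0.08 and *Actg2* to -0.09, and none of the 9 passed the threshold. Quantile normalization gave *Myl9* a log2 fold change of -0.13, which passed the threshold in the lower direction (adjusted p = 0.0355 by limma, with 6.39% of all genes past it), and turned *Tpm1* to -0.06 and *Vim* to -0.03. *Acta2*, *Tagln*, *Cnn1* and *Tpm2* kept a positive sign under both.

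**Figure D4:**
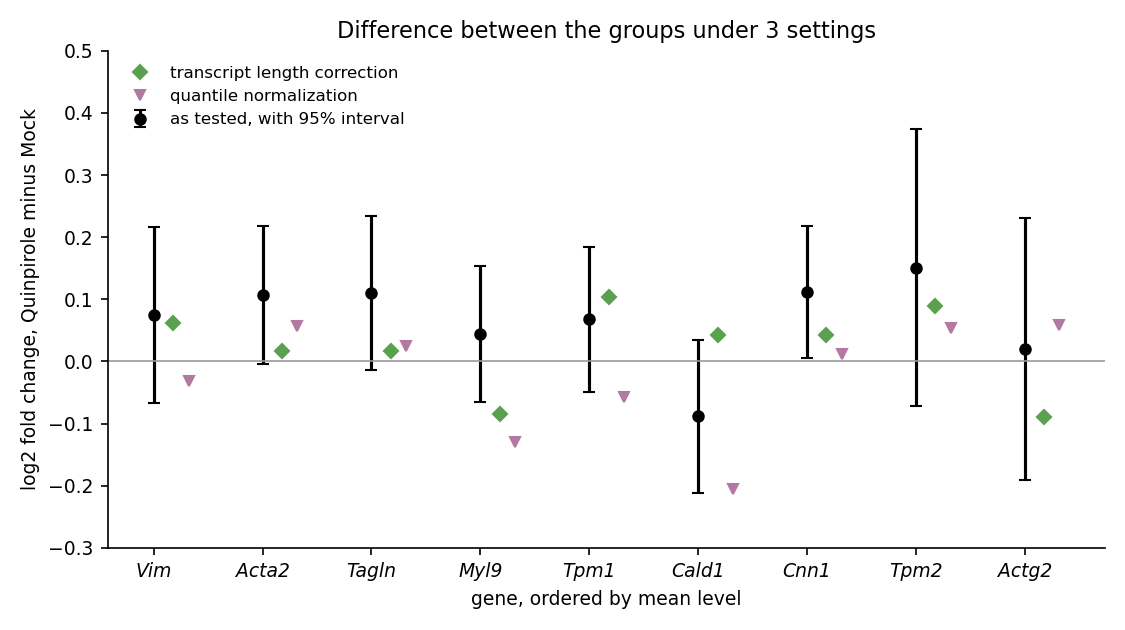
Log2 fold change of the 9 tested genes, Quinpirole minus Mock, with the 95% interval as tested (black), after correction for exonic length (green diamonds) and after quantile normalization (purple triangles). The black intervals of 8 genes include 0 and that of *Cnn1* starts at 0.0057, whereas *Actg2*, *Cald1* and *Myl9* change sign with the length correction and *Myl9*, *Tpm1* and *Vim* with quantile normalization.

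The other genes of the contractile apparatus were considered next. Of 17 tested, 1 passed the test as higher and 1 as lower in Quinpirole. Over all genes tested 5.74% passed as higher and 5.18% as lower, so the list was near that share. *Cnn2*, the non-muscle calponin, was at 346, 347 and 359 FPKM in Mock and at 382, 394 and 383 FPKM in Quinpirole, with a log2 fold change of 0.14 (adjusted p = 0.0453 by limma). *Myh9*, a non-muscle myosin heavy chain, was at 209, 194 and 181 FPKM in Mock and at 158, 145 and 159.8 FPKM in Quinpirole, with a log2 fold change of -0.33 (adjusted p = 0.0274 by limma). In both genes the groups did not overlap. After the length correction 0 of the 17 passed. With median ratio scaling 0 passed as higher and 1 as lower, and with quantile normalization 0 as higher and 2 as lower. Over all genes, in either direction, 4.16% passed with the length correction, 10.4% with median ratio scaling and 6.39% with quantile normalization. The most abundant of this list was *Myl6* at a mean of 907 FPKM. Among the other actins 0 of 3 tested passed, with *Actg1* the most abundant at 1336 FPKM.

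*Srf* was at a mean of 32.1 FPKM with a log2 fold change of -0.0024 (adjusted p = 0.974 by limma), and 0 of the 3 tested genes of SRF and its coactivators passed. Myocardin (*Myocd*), the coactivator of smooth and cardiac muscle, was at 0.0306 FPKM, and the myocardin-related factors *Mrtfa* and *Mrtfb* were at 9.65 and 6.22 FPKM. Of 14 other targets of SRF 0 passed, or 1 as lower with median ratio scaling or quantile normalization. Over all genes 10.9% passed as tested, 10.4% with median ratio scaling and 6.39% with quantile normalization. *Ccn1*, a secreted matrix protein, was the most abundant at 537 FPKM. TGF-beta signalling induces contractile genes in many cell types. *Thbs1*, a secreted protein that activates TGF-beta, was the most abundant gene of this pathway list at 211 FPKM and did not pass, with a log2 fold change of -0.21 (adjusted p = 0.0633 by limma).

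Of 9 other intermediate filament and linker genes tested, 1 passed as higher and 2 as lower, against 5.74% and 5.18% of all genes. *Cryab*, a small heat shock protein that binds desmin and GFAP filaments, was at 273, 262 and 284 FPKM in Mock and at 315, 325 and 308 FPKM in Quinpirole, with a log2 fold change of 0.21 (adjusted p = 0.0297 by limma). *Nes* fell by 0.18 on the log2 scale (adjusted p = 0.0369) and *Plec*, which encodes the linker plectin, fell by 0.62 (adjusted p = 0.0246), both by limma. *Plec* was at 34.9, 32.8 and 28.8 FPKM in Mock and at 21.4, 17.7 and 22.8 FPKM in Quinpirole, so the groups were far apart. *Gfap*, the most abundant of this list at a mean of 507 FPKM, had a log2 fold change of -0.12 with an adjusted p of 0.163 by limma. After the length correction 0 of the 9 passed as higher and 2 as lower, and with quantile normalization 0 as higher and 3 as lower. Over all genes, in either direction, 4.16% and 6.39% passed in these settings.

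The level of *Acta2* stood beside lower levels of the further markers chosen for vascular smooth muscle and for pericytes. *Tagln*, *Myl9* and *Cnn1*, which are among the 10 genes, were not counted as markers here. *Smtn* and *Mylk*, kept with the other genes of the contractile apparatus, were at means of 20.1 and 1.06 FPKM. Of 6 further smooth-muscle markers with a row, 4 were under 1 FPKM on average (*Myh11*, *Myocd*, *Sncg* and *Map3k7cl*), *Lmod1* was at 32.9 FPKM and *Synpo2* at 8.42 FPKM. The 6 summed to between 43.7 and 45.2 FPKM in Mock and between 40.5 and 43.4 FPKM in Quinpirole, and most of this sum was *Lmod1*, whose groups overlapped (log2 fold change -0.03, adjusted p = 0.5997 by limma). Neither of the 2 tested, *Lmod1* and *Synpo2*, passed. Of 10 pericyte markers 7 were under 1 FPKM, including *Rgs5* at 0.321 and *Kcnj8* at 0.0779 FPKM, and *Pdgfrb* was the highest at 23.7 FPKM. The pericyte sum was 35.9 to 39.6 FPKM in Mock and 29.4 to 30.9 FPKM in Quinpirole, and *Pdgfrb* (-0.30, adjusted p = 0.0227) and *Notch3* (-0.38, adjusted p = 0.0335) passed the limma test as lower. As tested, 2 of the 3 pericyte markers tested passed as lower, against 5.18% of all genes. After the length correction 1 passed as lower, and with quantile normalization 2 did. Over all genes, in either direction, 4.16% and 6.39% passed with the length correction and with quantile normalization.

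The astrocyte label was checked in the same way. *Aldoc* was the highest of 11 astrocyte markers at 321 FPKM, *Slc1a3* was at 197 FPKM and *Atp1b2* at 167 FPKM, whereas *Gjb6* at 0.139 FPKM and *Slc7a10* at 0.504 FPKM were under 1 FPKM and *Slc1a2* was at 6.96 FPKM. The marker sum was 968 to 1062 FPKM in Mock and 975 to 993 FPKM in Quinpirole. *Acta2* was between 14.3 and 15.0 times the level of *Atp1b2* in Mock and between 16.9 and 19.5 times in Quinpirole. *Atp1b2* itself passed the limma test as lower, with a log2 fold change of -0.19 (adjusted p = 0.0382), as did *Slc1a2* at -0.42 (adjusted p = 0.0297). As tested, 2 of the 9 astrocyte markers tested passed as lower, against 5.18% of all genes. After the length correction 1 passed as lower, and with quantile normalization 3 did. Over all genes, in either direction, 4.16% and 6.39% passed with the length correction and with quantile normalization. Which cells of the preparation carried the *Acta2* transcripts was not tested.

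**Figure D5:**
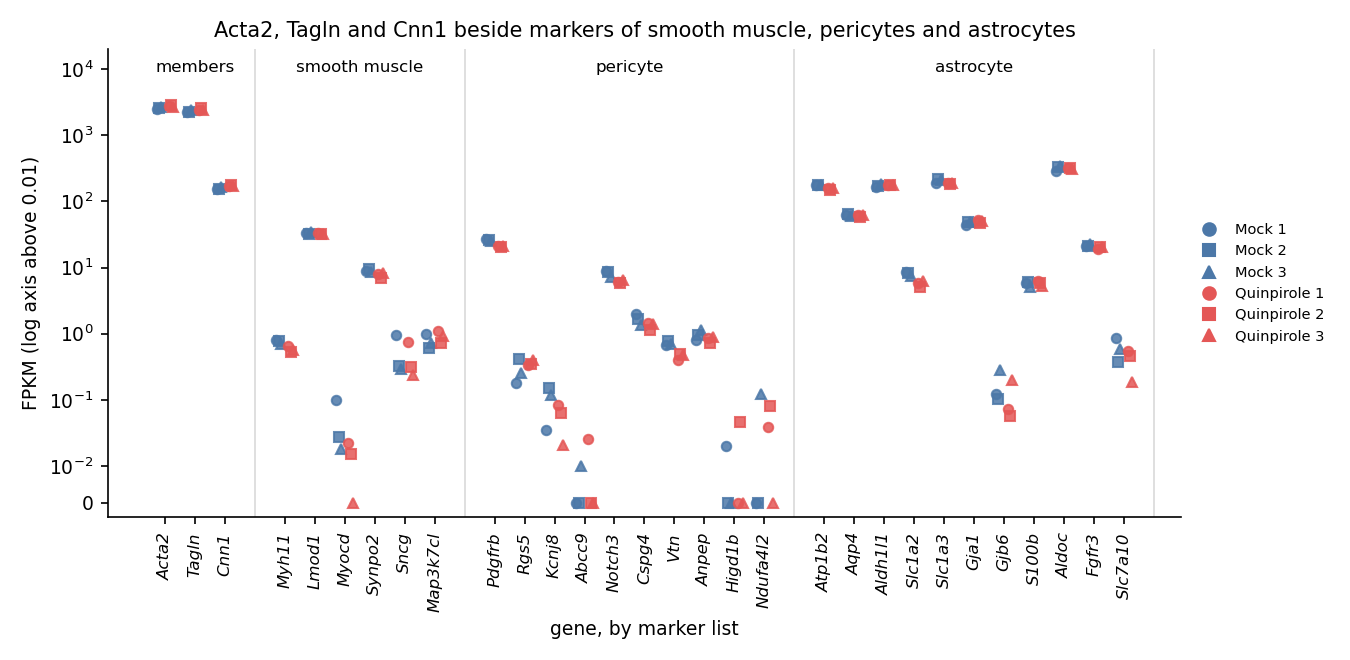
FPKM of *Acta2*, *Tagln* and *Cnn1* beside markers of smooth muscle, pericytes and astrocytes, on a y axis that is logarithmic above 0.01 FPKM. Each point is 1 library, with Mock on the left and Quinpirole on the right of each gene. *Acta2* and *Tagln* lie above every marker shown, and 4 of the 6 smooth-muscle and 7 of the 10 pericyte markers have means under 1 FPKM.

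The genes whose profile over the 6 libraries lay nearest to that of *Acta2* were *Ctsd*, *Pdpn*, *Rab8a*, *Tmem59* and *Cct3*. Each profile was log2(FPKM + 1) centred on its own mean, and the root mean square difference from that of *Acta2* was between 0.0066 and 0.0129, among 11859 genes compared. Among these, *Tagln* stood at position 51, *Cnn1* at 94, *Vim* at 285 and *Myl9* at 362, whereas *Tpm1*, *Tpm2*, *Actg2* and *Cald1* stood at 3357 or beyond. For *Vim* the nearest were *Psmb6*, *Ensa*, *Capns1*, *Map1lc3b* and *Fn3krp*, with differences between 0.0114 and 0.0188 among 11652 genes. With 6 libraries many genes share such a profile, and nearness is a description of these libraries.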

How the data were processed

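Poly(A) RNA of astrocytes isolated with anti-ACSA-2 microbeads was sequenced in 6 libraries, 3 Mock and 3 Quinpirole by their labels. The authors prepared libraries with the NEBNext Ultra kit, trimmed paired-end reads, mapped them with TopHat2 to GRCm38, kept reads with at most 1 mismatch, and deposited a table of FPKM values by gene for each library. The program and annotation behind the FPKM values and the use of strand in counting are not given in the sources used here. FPKM values are divided by transcript length and depth, so errors in the length used move a gene in all libraries alike.

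Symbols, positions and exonic lengths came from GENCODE annotation on GRCm38 (17090 of 17193 identifiers matched). The tables hold no counts. From the steps of the lowest values, depth was estimated at 22400000 to 27500000 fragments per library, although 54.7% to 60.2% of these values were within 0.1 of a whole number of fragments, where chance gives 20.0%, so whole reads were not recovered. FPKM summed to 401769 to 413730 in Mock and 425244 to 437164 in Quinpirole. No pair of libraries agreed within sampling noise (median chi-square 2.39 to 3.83 times the chance value within groups, 4.48 to 6.85 times between them). None of 72 ribosomal protein genes was listed at 0.

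Genes with a mean of at least 1 FPKM (12255) were tested on log2(FPKM + 1) by the linear models of limma 3.58.1 under R 4.3.3 (eBayes with trend; tests were two-sided, with Benjamini-Hochberg adjustment over all genes and a threshold of 0.05). Fold changes are on this scale, which understates the change of low genes. In a simulation of the comparison over 12255 genes, 191 of 200 genes given a log2 change of 1 were recovered and 8 others were called. The largest change among the 9 tested genes was 0.15, for *Tpm2*. Recovery of changes of that size was not simulated. Exonic length was corrected by loess (span 0.3) on each library's deviation from the gene mean. A coding sequence was the longest open reading frame found in any coding transcript of the gene. Tables and figures were made with Python 3.11.15, numpy 2.4.6, pandas 2.3.3 and matplotlib 3.10.9.

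The genes, the lists and the markers were chosen with earlier results of these data known. Named are the 10 genes, in each list the genes past the threshold and the most abundant one, in each marker list its most abundant gene and defining genes near 0, and for *Acta2* and *Vim* the 5 genes nearest in profile, among genes whose profile varied at least 50% as much. The other genes of the contractile families, the marker genes past the threshold and further genes given beside them were named after their values were seen. Counts of calls in the TGF-beta and microglial lists are not reported here. The alternatives were a pseudocount of 0.1, no filter, a minimum mean of 5 FPKM, median ratio scaling, quantile normalization, a block on the replicate number, eBayes with no trend, robust eBayes, the length correction, and each library left out in turn.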

Additional observations from a re-analysis of the deposited data

How the results depend on the processing

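Of 143 values of the 9 tested genes under the alternatives, 129 stayed on the same side of 0 and of the threshold. Another 12 changed sign. The agreement was partly fixed in advance. No filter, the minimum mean of 5 FPKM, the replicate block, eBayes without trend and robust eBayes leave the fold change as it was. Where few of all genes passed, as with the block, a gene could hardly cross the threshold. All changes of sign came from the length correction, quantile normalization or a library left out. With the length correction, and with the replicate block together with it, *Actg2* was at -0.0888, *Cald1* at 0.0422 and *Myl9* at -0.0838. With quantile normalization *Myl9* was at -0.129, *Tpm1* at -0.0574 and *Vim* at -0.0311. Leaving out 1 library put *Actg2* between -0.0458 and 0.0847. The cause of these turns was not tested. The number of the 9 genes past the threshold was 1 with quantile normalization, between 0 and 2 when 1 library was left out, and 0 otherwise. Over all genes, 1339 passed. This count was 633 without a filter, 783 with quantile normalization (283 higher and 500 lower, 36.1% higher against 52.6%), 714 without trend (293 higher and 421 lower), 509 with the length correction, and between 3 (without Mock 2) and 1215 (without Mock 3) when 1 library was left out, with 6 without Mock 1, 11 without Quinpirole 1, 25 without Quinpirole 2 and 210.0 without Quinpirole 3. The other settings gave between 1273 and 1549.

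With the replicate block 2 genes passed, and 0 with the block and the length correction, where 2723 had an unadjusted p under 0.05 by limma. Samples of the same replicate number did not deviate together (mean correlation -0.0475, against 0.0238 for different numbers). These means are tied to each other, because deviations from the group means sum to 0 within each group. The comparison rests on 3 pairs of the same number, with correlations from -0.103 to 0.0260. It showed no sign of pairing by replicate number but cannot exclude one. The block takes up degrees of freedom in so small a design. No gene of the other lists passed with the block.

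These limits bear on all values. With 3 libraries a group, the 95% interval of the *Acta2* fold ran from 0.997 to 1.16. Folds within this interval cannot be told apart for *Acta2*. *Des* was below what 3 fragments would give. Depth was estimated and not given, and FPKM carries the transcript lengths the authors used.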

Other observations

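Markers of other cell types were measured in the same libraries. *Foxj1* at a mean of 124 FPKM led the ependymal list, *C1qa* at 222 FPKM the microglial list, *Cnp* at 161 FPKM the oligodendrocyte list, *Stmn2* at 59.1 FPKM the neuronal list, *Col1a1* at 86.3 FPKM the fibroblast list, *Slco1a4* at 45.6 FPKM the endothelial list and *Folr1* at 26.3 FPKM the choroid plexus list. Markers picked because they were at or near 0 were *Pecam1* at 0.0394 FPKM for endothelium, *Mog* at 0.0210 FPKM for oligodendrocytes, *Rbfox3* at 0.0357 FPKM for neurons, *Lum* at 0.0745 FPKM for fibroblasts and *Tmem212* at 0.103 FPKM for ependyma. Means under 1 FPKM were found for 7 of 10 endothelial, 4 of 8 oligodendrocyte, 5 of 8 neuronal, 2 of 8 fibroblast and 1 of 6 ependymal markers. Higher ones included *Olig2* at 47.0, *Map2* at 24.5, *Col6a1* at 23.8, *Rsph1* at 15.7 and *Kdr* at 5.38 FPKM. *Col1a1* fell by 0.34 on the log2 scale (adjusted p = 0.0298) and *Stmn2* rose by 0.22 (adjusted p = 0.0322), both by limma. They were the only genes to pass among 6 fibroblast and 3 neuronal genes tested. Over all genes 5.18% passed as lower and 5.74% as higher. No gene of the ependymal, choroid plexus, oligodendrocyte or endothelial list passed the limma test. After the length correction 1 of the 5 ependymal genes tested passed as lower, where 4.16% of all genes passed. The fibroblast sum was 157 to 172 FPKM in Mock and 132 to 144 FPKM in Quinpirole. The neuronal sum was 96.7 to 102 FPKM in Mock and 105.0 to 112 FPKM in Quinpirole, and 7 microglial markers summed to 345 to 361 FPKM in Mock and 359.7 to 396 FPKM in Quinpirole. The part of any of these cells in the levels of the contractile genes was not tested.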
